A study of Homo sapiens with 9 samples.

Results

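NF-κB transcription factors and the inflammatory signals they are known to switch on were followed in irradiated keratinocytes through 10 genes. The genes were the subunits NFKB1, NFKB2, RELA and RELB, the inhibitors NFKBIA and TNFAIP3, the chemokines CCL2 and CXCL8, the growth factor CSF1 and the cytokine IL6. Each was found by its name among the 61311 genes of the count table, and all 10 had a row there. RNA came from HaCaT, a line of immortalized human keratinocytes of wild-type label, in 3 groups with 3 libraries each. Control HaCaT cells were not irradiated, the UVA group received UVA at 5 J/cm², and the third group received the same dose of UVA and then CT, an extract of the flowers of Coreopsis tinctoria. According to the methods, control cells went through the same changes of medium. The CT dose is stated in the text of the study and not in the labels, which also leave out the time from irradiation to RNA extraction. No group received CT without UVA, so the CT comparisons hold for irradiated cells. Neither the labels nor the methods say that the 3 libraries of a group came from separate cultures, and the p-values then measure only the spread between these samples, which may be technical.

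NF-κB proteins bind DNA as pairs of subunits. In resting cells most of them are held in the cytoplasm by inhibitors such as IκBα, the product of NFKBIA, until the IKK kinases mark the inhibitor for destruction. In the classical pathway pairs containing RELA and the processed product of NFKB1 enter the nucleus, whereas in the alternative pathway the kinase NIK, encoded by MAP3K14, drives the processing of the NFKB2 product, which then acts with RELB. NFKBIA and TNFAIP3 are themselves known targets of NF-κB and shut the signal down again. Keratinocytes are known to release CCL2, which attracts monocytes, CXCL8, which attracts neutrophils, CSF1, on which macrophages depend, and IL6, a cytokine of the acute phase response. These counts measure mRNA and carry no information on where the subunits are in the cell or whether they are bound to DNA.

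The libraries held 16390289 to 21971215 counts. The keratinocyte markers were present, with 90770 to 96231 counts over their 11 genes in control cells, 59322 to 77573 after UVA and 75889 to 83849 after UVA and CT. As CPM (counts scaled to a common library size) these sums were 4670 to 5460, 3610 to 4000 and 3780 to 3910 in the same order. The scaled sums of the irradiated groups thus overlapped, and both lay under control. KRT5 averaged 2190, 1450 and 1410 CPM. KRT1, a marker of differentiated keratinocytes, held 0 to 5 counts per library. Of 10 tested keratinocyte genes, 7 were lower after UVA and 5 were lower after UVA and CT, both against control. Of all tested genes 10.6% and 14.2% were lower in these comparisons. The part of the keratinocyte shift in the results below was not tested. In bulk RNA, fewer cells of a kind and less RNA per cell cannot be told apart. The 10 genes of leukocytes and macrophages together held 8 to 32 counts per library, with AIF1 at 0 in all libraries. The 6 melanocyte genes held 26 to 49 counts with TYR at 0, the 6 endothelial genes 124 to 170 with KDR at 0, and the 8 fibroblast genes 19 to 59 with PDGFRA at 0. The fibroblast sum was 41 to 59 counts in control cells, 19 to 24 after UVA and 22 to 24 after UVA and CT. The share of counts from mitochondrially encoded genes was 0.816 to 0.905% in the 9 libraries.

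One library stood apart for these genes. UVA and CT replicate 3 was the highest of the 9 libraries for 8 of the 10 genes and the lowest for CSF1, while over all 15154 tested genes it was the highest for 19.2% and the lowest for 16.3%. Against the mean of the other two libraries of its group it held 2.80 times the IL6, 2.66 times the CXCL8, 1.59 times the TNFAIP3 and 1.58 times the RELB, and 0.784 times the CSF1. The same ratio had a median of 1.25 over the 10 genes and of 1 over all tested genes. This library also had the largest total count, 21971215, and the lowest TMM factor, 0.976, and its share of mitochondrial counts was 0.884%. The part of depth or scaling in these ratios was not tested. Results for the 10 genes that rest on this library are given with and without it.

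**Figure D1:**
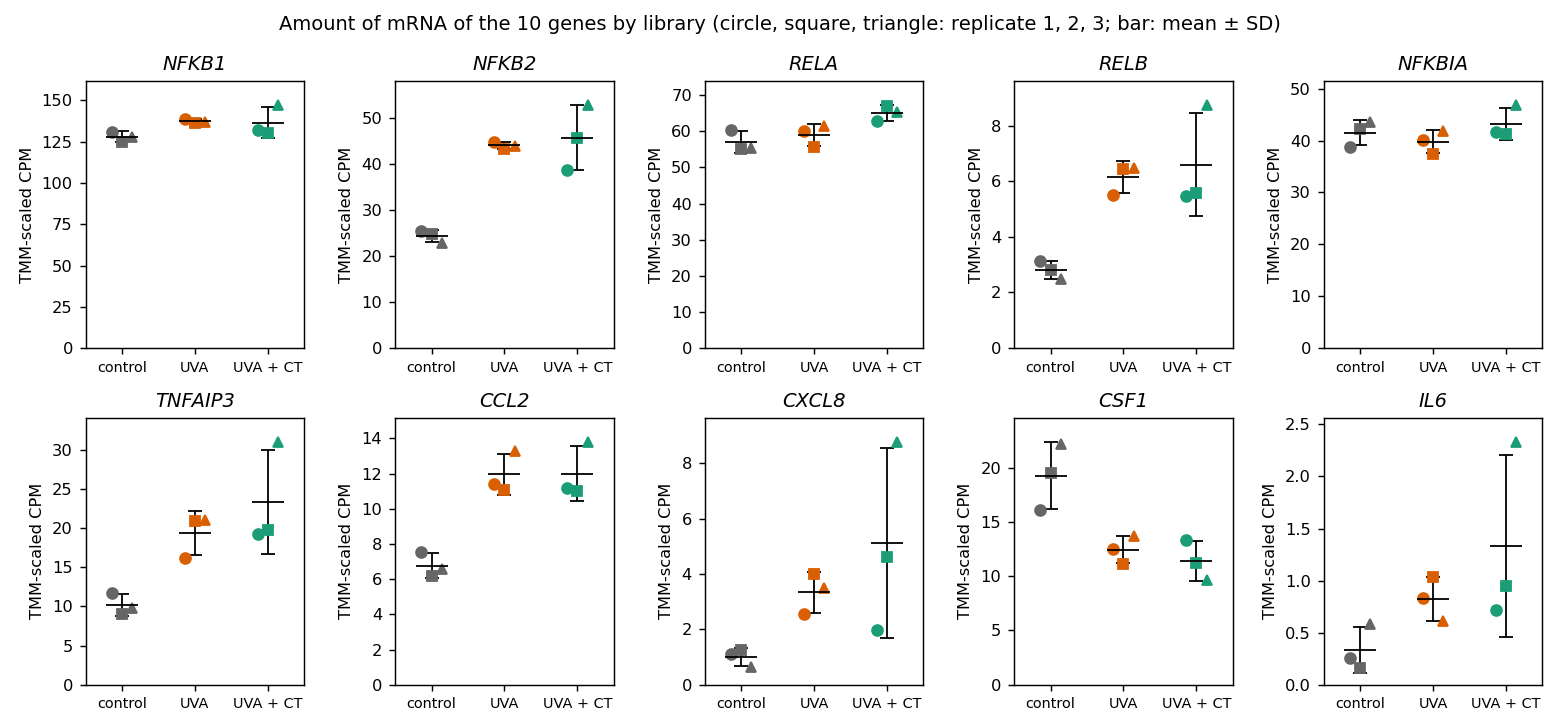
Amount of mRNA of the 10 genes in each of the 9 libraries, as CPM scaled by TMM on a linear axis from 0. Symbols are the replicates, the long bar is the mean and the whiskers are the SD of 3 libraries. NFKB2, RELB, TNFAIP3 and CCL2 lie higher in both irradiated groups than in control, CSF1 lies lower, and the triangle of UVA and CT replicate 3 lies above its group for most genes.

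All CPM values are scaled by the TMM factors of the libraries. Per kilobase of exon sequence in GENCODE 29, control cells held the most NFKB1 (20.4 CPM per kb), followed by NFKBIA (17.5), RELA (10.4), NFKB2 (5.44), CSF1 (3.56), CCL2 (3.41), TNFAIP3 (2.01), RELB (0.925), CXCL8 (0.443) and IL6 (0.162). REL, the remaining NF-κB subunit, held 11 CPM per kb. CXCL8 and IL6 thus rested on few reads, with 11 to 188 and 3 to 50 counts per library. All 10 genes passed the filter on low counts, 9 of them in every library. IL6 passed it through the irradiated groups, since only 1 of 3 control libraries reached the CPM of 0.517 that the filter asks for. A gene admitted in this way had to be higher in the irradiated groups, so IL6 is described against control without a call, and the counts against control are given over the other 9 genes.

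NF-κB binds to short DNA sites, and the promoters of these genes are shown here so that genes which moved and genes which did not can be set side by side for such sites. RefSeq promoter windows of GRCh38.p14, from 250 bases before to 50 after a transcript start, were at hand for 7 of the 10 genes, with 11 windows in all. RELB, CCL2 and CSF1 had no entry. Each window was searched on both strands for the 10-base NF-κB consensus and for the shorter motif GGNNTTTCC, which overlaps it where the consensus ends in TTTCC. The last 130 bases before the start are printed 5′ to 3′ on the strand of the gene, with matches to either motif in capitals.
NFKB2, second start, chr10:102394448-102394577, plus strand: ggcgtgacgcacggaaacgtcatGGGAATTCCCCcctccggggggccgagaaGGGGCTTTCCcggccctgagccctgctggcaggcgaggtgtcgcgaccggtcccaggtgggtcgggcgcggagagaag
TNFAIP3, chr6:137867129-137867258, plus strand: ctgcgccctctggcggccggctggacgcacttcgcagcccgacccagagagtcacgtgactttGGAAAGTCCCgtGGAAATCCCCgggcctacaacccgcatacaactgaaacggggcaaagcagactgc
NFKB1, first start, chr4:102501229-102501358, plus strand: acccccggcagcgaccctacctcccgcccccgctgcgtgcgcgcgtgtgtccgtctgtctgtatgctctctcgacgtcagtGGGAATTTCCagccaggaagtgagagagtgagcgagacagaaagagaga
NFKBIA, chr14:35404750-35404879, minus strand: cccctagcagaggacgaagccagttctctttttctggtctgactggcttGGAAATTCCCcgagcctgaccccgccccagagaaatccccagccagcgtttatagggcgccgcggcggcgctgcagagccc
CXCL8, chr4:73740439-73740568, plus strand: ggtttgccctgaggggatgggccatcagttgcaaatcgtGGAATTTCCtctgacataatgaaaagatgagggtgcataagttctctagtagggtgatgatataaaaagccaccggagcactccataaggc
IL6, chr7:22727070-22727199, plus strand: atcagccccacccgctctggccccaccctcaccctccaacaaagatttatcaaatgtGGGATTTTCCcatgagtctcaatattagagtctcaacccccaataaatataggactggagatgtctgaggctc

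The consensus was matched in 6 of the 11 windows and in 5 of the 7 genes, against 11.3% of all 35116 windows and 13.3% of all 27305 genes of the same table. The shorter motif was matched in 7 windows and 6 genes, against 6.26% of windows and 7.61% of genes. The windows of NFKB1 and NFKBIA, whose mRNA passed no test, held matches as did those of NFKB2 and TNFAIP3, whose mRNA rose, and of REL, whose mRNA fell, and both windows of RELA held none. The second window of NFKB1 and the first of NFKB2 held none either. CXCL8 matched the shorter motif alone, at position -91 from the start. The genes were picked as NF-κB subunits, inhibitors and signals NF-κB is known to switch on. Shares set beside those of all windows and genes are therefore descriptions. These are matches of letters in short windows and do not show binding.

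**Figure D2:**
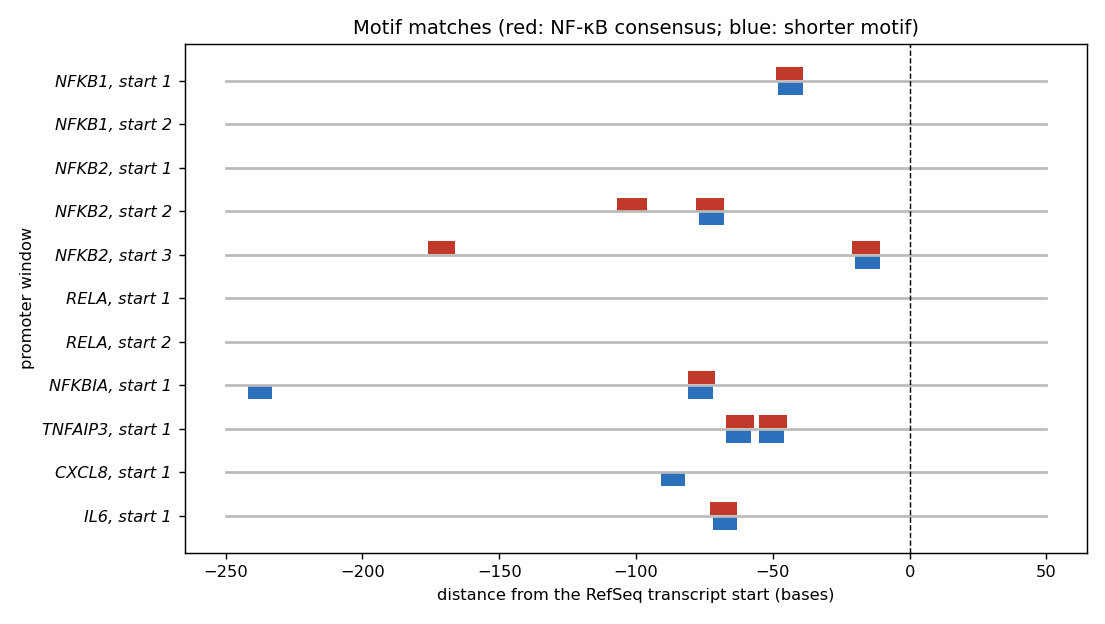
Positions of matches to the NF-κB consensus (red) and to the shorter motif (blue) in the 11 promoter windows of 7 genes, against distance in bases from the RefSeq transcript start (dashed line). Matches lie in windows of NFKB1, NFKB2, NFKBIA, TNFAIP3, CXCL8 and IL6, and the 2 windows of RELA hold none.

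Whether UVA changed the inflammatory transcripts was asked by comparing irradiated with control HaCaT cells. NFKB2, RELB, TNFAIP3 and CCL2 rose, CSF1 fell, and NFKB1, RELA, NFKBIA and CXCL8 did not pass an adjusted p of 0.05. Thus 4 of 9 genes were called higher and 1 lower in edgeR's quasi-likelihood test with Benjamini-Hochberg adjustment. Of all 15154 tested genes, 21.1% were called, 10.5% higher and 10.6% lower. The libraries of UVA and control cells did not overlap for 6 of the 9 genes that were higher and 1 that was lower after UVA, against 18.9% and 19% of all tested genes. The median log2 fold change (log2FC) was 0.82 over the 9 genes and 0.0013 over all tested genes. The genes were chosen with earlier results of these data known. Shares and medians set beside those of all tested genes, here and below, are therefore descriptions.

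Among the subunits, NFKB2 and RELB rose and REL fell, while NFKB1 and RELA did not pass the test. NFKB2, on chromosome 10 from 102394110 to 102402529, held 25.5, 24.8 and 22.9 CPM in control cells, 44.9, 43.4 and 44.0 after UVA, and 38.8, 45.6 and 52.8 after UVA and CT. Every irradiated library lay above every control library, and the UVA libraries lay within the range of those with CT. The rise after UVA was 1.81-fold, a log2FC of 0.85 (standard error 0.09, adjusted p = 9.95e-06 from edgeR).

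RELB, on chromosome 19 from 45001430 to 45038198, held 3.14, 2.81 and 2.47 CPM in control cells, 5.5, 6.45 and 6.49 after UVA, and 5.48, 5.58 and 8.73 after UVA and CT. The irradiated groups again lay wholly above control. It rose 2.18-fold after UVA, the largest rise of the 4 genes called, with a log2FC of 1.13 (standard error 0.20, adjusted p = 0.000469).

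NFKB1, on chromosome 4 from 102501329 to 102617302, held 131, 125 and 128 CPM in control cells, 139, 136 and 137 after UVA, and 132, 130 and 147 after UVA and CT. The UVA libraries lay above the control libraries by a narrow margin, and the log2FC of 0.10 (standard error 0.05) had an adjusted p of 0.15. RELA, on chromosome 11 from 65653596 to 65663094, held 60.4, 55.1 and 55.4 CPM in control cells, 60.1, 55.6 and 61.5 after UVA, and 62.8, 67.1 and 65.2 after UVA and CT. Control and UVA libraries of RELA overlapped, with a log2FC of 0.05 (95% interval -0.07 to 0.18, adjusted p = 0.583). REL fell, from 145 ± 14.2 CPM in control cells to 103 ± 1.15 after UVA (SD, n = 3 libraries per group, log2FC -0.50, standard error 0.09, adjusted p = 0.00479).

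Of the inhibitors, TNFAIP3 rose and NFKBIA did not pass the test. TNFAIP3, an enzyme that edits ubiquitin chains and ends NF-κB signalling, lies on chromosome 6 from 137867188 to 137883312. It held 11.7, 8.98 and 9.75 CPM in control cells, 16.2, 20.9 and 21.1 after UVA, and 19.2, 19.8 and 31.0 after UVA and CT, with no overlap of either irradiated group with control. The rise after UVA was 1.91-fold (log2FC 0.93, standard error 0.22, adjusted p = 0.0194). That call was lost without control replicate 2 or 3 or UVA replicate 2 or 3, with adjusted p up to 0.0923, and stood without UVA and CT replicate 3 (adjusted p = 1.47e-05). NFKBIA, on chromosome 14 from 35401511 to 35404749, held 38.8, 42.2 and 43.5 CPM in control cells, 40.2, 37.4 and 41.8 after UVA, and 41.6, 41.2 and 46.8 after UVA and CT. All 3 groups overlapped, and the log2FC after UVA was -0.06 (95% interval -0.21 to 0.09, adjusted p = 0.617).

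Of the chemokines, CCL2 rose and CXCL8 did not pass the test with all 9 libraries in the fit. CCL2, on chromosome 17 from 34255218 to 34257203, held 7.56, 6.17 and 6.58 CPM in control cells, 11.4, 11.1 and 13.3 after UVA, and 11.2, 11 and 13.8 after UVA and CT. The irradiated groups lay above control and covered nearly the same range. Its log2FC after UVA was 0.82 (standard error 0.13, adjusted p = 0.000209).

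CXCL8, on chromosome 4 from 73740506 to 73743716, held 1.13, 1.24 and 0.646 CPM in control cells, 2.56, 4.02 and 3.48 after UVA, and 1.97, 4.63 and 8.77 after UVA and CT. The UVA libraries did not overlap with control, and the libraries with CT were widely spread. Its log2FC after UVA of 1.71 (standard error 0.60) had an adjusted p of 0.0888 in that fit. The adjusted p was 0.000244 when control and UVA libraries were fitted alone and 0.00155 without UVA and CT replicate 3, and 0.00073 without UVA and CT replicate 1. DESeq2 gave 0.0174, the fit without a filter on low counts 0.0021 and the fit with a replicate block 0.0492. In the remaining 11 of 17 alternatives CXCL8 did not pass, with adjusted p up to 0.255.

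CSF1, on chromosome 1 from 109910242 to 109930992, moved the other way. It held 16.1, 19.5 and 22.2 CPM in control cells, 12.5, 11.1 and 13.7 after UVA, and 13.3, 11.2 and 9.61 after UVA and CT, with every irradiated library below every control library. After UVA it fell by 0.63 on the log2 scale (standard error 0.13, adjusted p = 0.00254).

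IL6, on chromosome 7 from 22725884 to 22732002, held 5, 3 and 10 counts in control cells, 15, 17 and 12 after UVA, and 15, 19 and 50 after UVA and CT. As CPM these were 0.257, 0.162 and 0.588, then 0.833, 1.03 and 0.614, then 0.721, 0.947 and 2.33. The highest control library lay just under the lowest UVA library. The log2FC after UVA was 1.30 (standard error 0.56). The study also assayed IL6 and the inflammatory cytokine TNF by qPCR, and reports less mRNA of both in irradiated cells with CT than without. In these libraries IL6 did not pass the test between those groups, as given below. TNF held too few reads for edgeR, with 0 to 5 counts per library and 10 in all with CT against 4 after UVA alone. Its CPM gave p = 1 for UVA against control and p = 0.4 for each CT comparison by exact two-sided permutation tests, in which 3 against 3 libraries cannot go below 0.1.

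**Figure D3:**
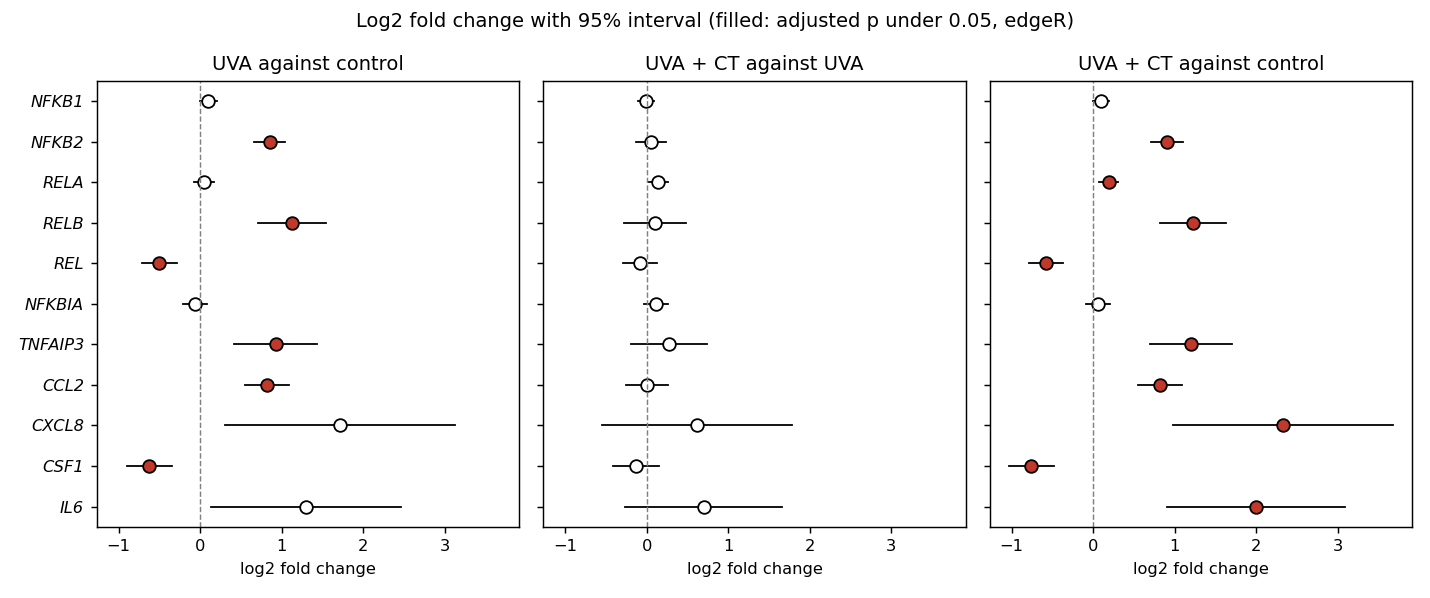
Log2 fold change (x axis) of the 10 genes and REL in the 3 comparisons of groups, with 95% intervals as lines and filled points for an adjusted p under 0.05 in edgeR. After UVA the filled points are NFKB2, RELB, TNFAIP3 and CCL2 above 0 and CSF1 and REL below 0, and no point is filled between irradiated cells with and without CT. The point of IL6 against control is a description, since the gene was tested through the irradiated groups.

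Whether CT altered these transcripts in irradiated cells was asked by comparing UVA-irradiated HaCaT cells with and without CT. None of the 10 genes was called by edgeR in either direction (0 higher and 0 lower), and of all tested genes 1.56% were called, 0.944% higher and 0.614% lower. Before adjustment, 1 gene was higher and 0 were lower at p under 0.05, against 1122 and 878 of all 15154 tested genes. Neither DESeq2 nor limma-voom called any of the 10 (0 in both). The median log2FC of the 10 genes was 0.11. A missed threshold does not show equal amounts, and the intervals of the differences are therefore given.

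The gene past an unadjusted p of 0.05 was RELA, whose 3 libraries with CT lay above the 3 libraries with UVA alone (log2FC 0.14, 95% interval 0.02 to 0.26, adjusted p = 0.296). The other 9 genes overlapped between these groups, and of all tested genes 9.77% did not overlap with CT higher and 9.01% with CT lower. For NFKB1 the log2 difference was -0.01 (95% interval -0.11 to 0.09), for NFKB2 0.05 (-0.13 to 0.23) and for RELB 0.10 (-0.27 to 0.48). NFKBIA differed by 0.12 on the log2 scale (95% interval -0.03 to 0.26) and TNFAIP3 by 0.27 (-0.20 to 0.74).

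CCL2 differed by 0.00 on the log2 scale (95% interval -0.25 to 0.26) and CSF1 by -0.13 (-0.42 to 0.15). The intervals of the low genes were wide. CXCL8 differed by 0.62 on the log2 scale (95% interval -0.55 to 1.78, adjusted p = 0.662) and IL6 by 0.70 (-0.26 to 1.66, adjusted p = 0.552), and in both the highest library was UVA and CT replicate 3. Without that library the log2 difference was -0.02 for CXCL8 (adjusted p = 0.993) and 0.02 for IL6 (adjusted p = 0.995), and that of NFKB2, RELB and CCL2 turned to -0.07, -0.15 and -0.11 (adjusted p = 0.861, 0.860 and 0.863).

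CT-treated UVA-irradiated cells were also compared with control cells, which shared their libraries with the comparison after UVA alone. The 5 genes called after UVA alone were called here in the same direction, and RELA and CXCL8 passed the test in addition, so that 6 of the 9 genes other than IL6 were higher and 1 was lower. Of all tested genes, 29.8% were called, 15.7% higher and 14.2% lower. The libraries did not overlap for 6 of the 9 genes higher and 1 lower, against 21.8% and 21.2% of all tested genes, and the median log2FC was 0.83 over the 9 genes and 0.0010 over all tested genes. That RELA and CXCL8 passed here and not after UVA alone does not show a difference between the irradiated groups, which was tested directly above.

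NFKB2 was 1.87-fold higher than in control cells (log2FC 0.91, adjusted p = 2.27e-06), RELB 2.34-fold (1.23, adjusted p = 9.80e-05) and TNFAIP3 2.30-fold (1.20, adjusted p = 0.00372). CCL2 had a log2FC of 0.83 (adjusted p = 8.94e-05) and CSF1 of -0.76 (adjusted p = 0.000311). Without UVA and CT replicate 3 all of these kept their calls, with log2FCs of 0.79 for NFKB2, 0.97 for RELB, 0.94 for TNFAIP3, 0.71 for CCL2 and -0.65 for CSF1. RELA was 1.14-fold higher (log2FC 0.19, adjusted p = 0.0176). Its call was lost without control replicate 2 or 3 or UVA and CT replicate 2, with adjusted p up to 0.0898.

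CXCL8 was 5.03-fold higher than in control cells (log2FC 2.33, standard error 0.58, adjusted p = 0.0196). Its log2FC was 1.69 without UVA and CT replicate 3 (adjusted p = 0.0031), and the call was lost when any 1 of the control replicates was left out, with adjusted p up to 0.0863. For IL6, which is described without a call, the log2FC was 2.00 with all libraries (standard error 0.52) and 1.32 without UVA and CT replicate 3. NFKB1 had a log2FC of 0.09 (adjusted p = 0.152) and NFKBIA of 0.06 (adjusted p = 0.565).

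**Figure D4:**
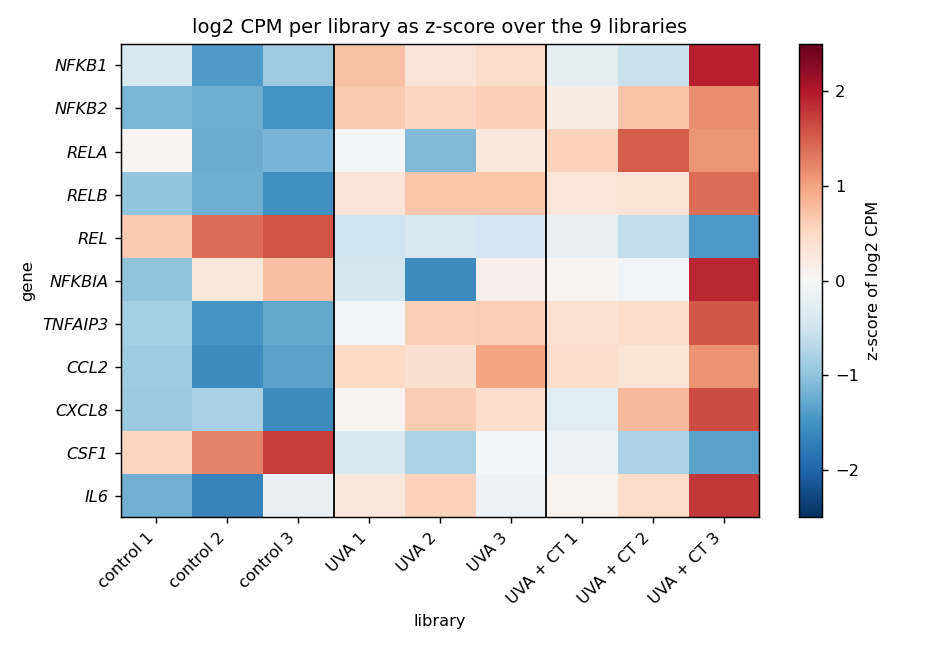
Log2 CPM of the 10 genes and REL in each of the 9 libraries (columns), as z-scores over the 9 libraries of a gene (rows). Control libraries are low for NFKB2, RELB, TNFAIP3, CCL2 and CXCL8 and high for REL and CSF1, and UVA and CT replicate 3 is the highest library for 8 of the 10 genes.

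The rest of the pathway was followed in lists of genes by role, chosen with earlier results of these data known. Where one of the 10 genes belongs to a list, the counts by list below include it. Of 159 further genes in these lists, 109 were tested, and after UVA 20 were higher (18.3%, against 10.5% of all tested genes) and 13 lower (11.9%, against 10.6%), with a median log2FC of 0.03. Between irradiated cells with and without CT 2 were higher and 0 lower, or 1.83%, which is near the 1.56% called of all tested genes. CT-treated cells had 30 higher (27.5%, against 15.7%) and 20 lower (18.3%, against 14.2%) than control cells. Of the genes called higher, CXCL3 and CD40 after UVA and CXCL3, IL11RA and IL23A after UVA and CT were over the filter's CPM in fewer than 3 libraries of a group, and without genes of this kind 18 and 27 were higher. The same held for IL32 among the genes lower after UVA and CT, where 19 were left. The counts of calls moved with single libraries. Without control replicate 2 or 3 or UVA replicate 2 or 3, the 33 genes called after UVA became 19, 20, 17 and 17. In CT-treated against control cells the 50 genes called became 34 without UVA and CT replicate 3, with 22 higher and 12 lower. Calls among all tested genes went from 4517 to 3389 in that fit.

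Of 25 genes of the IKK complex, its kinases and adaptors, 2 were higher and 1 lower after UVA, or 12%, below the 21.1% of all tested genes. BIRC3, a ubiquitin ligase that restrains NIK, rose from 34.7 ± 1.17 to 61.8 ± 6.07 CPM (log2FC 0.83, adjusted p = 2.24e-05), and TRAF3, which brings NIK to that ligase, rose by 0.53 on the log2 scale (adjusted p = 0.000336). The death domain kinase RIPK1 had a log2FC of -0.18 (adjusted p = 0.0304, up to 0.112 without control replicate 3). MAP3K14, which encodes NIK itself, was called in CT-treated against control cells, with 17.3 ± 1.02 CPM in control, 20.4 ± 2.39 after UVA and 22.8 ± 2.16 after UVA and CT (log2FC 0.40, adjusted p = 0.00391). In that comparison 5 of the 25 were higher and 2 lower, or 28%, near the 29.8% of all tested genes. Those higher included MALT1, a protease of the CARD signalling complex (0.29, adjusted p = 0.00107).

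Of 17 inhibitors and feedback genes tested, 3 (17.6%), TNFAIP3 among them, were higher and 0 lower after UVA in edgeR. Of all tested genes 10.5% were higher and 10.6% lower, or 21.1% in all. Before adjustment (unadjusted p under 0.05) 5 rose and 0 fell, against 2541 and 2510 of all 15154 tested genes. TNIP1, a ubiquitin-binding partner of TNFAIP3, held 65.7 ± 3.23 CPM in control cells, 86.0 ± 2.35 after UVA and 97.3 ± 7.68 after UVA and CT, and its log2FC after UVA was 0.39 (adjusted p = 0.000118). The RNase gene ZC3H12A had a log2FC of 0.37 (adjusted p = 0.0459, up to 0.175 without control replicate 2). With CT against control 6 (35.3%) were higher and 0 lower, against 15.7% and 14.2% of all tested genes. PDLIM2 was among the 6 (log2FC 0.43, adjusted p = 0.0235). Its call was lost in 4 alternatives, with adjusted p up to 0.135 without UVA and CT replicate 3. At the unadjusted threshold 7 were higher and 0 lower, against 3114 and 2947 of all tested genes.

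Of 13 receptors that feed into NF-κB, 3 were higher and 1 lower after UVA, or 30.8% in all, against 21.1% of all tested genes. That share counts CD40, whose call is not read. Without it 2 were higher and 1 lower, and no excess is read. TLR4, the receptor for bacterial lipopolysaccharide, rose from 7.83 ± 1.75 to 15.3 ± 0.761 CPM (log2FC 0.96, adjusted p = 0.000270), and TNFRSF12A, the receptor for TWEAK, passed with less margin (adjusted p = 0.0385, lost in 7 alternatives). The costimulatory receptor CD40 held 3 to 6 counts per control library and 11 to 16 after UVA and was admitted by the filter through the UVA group, so its call is not read. TNFRSF1A, the main receptor for TNF, had a log2FC of -0.20 (adjusted p = 0.015, up to 0.0887 without control replicate 3). Of 7 tested receptors for chemokines, CSF1, IL6 and their relatives, 1 was higher and 2 were lower. That is 42.9% in all, against the same 21.1%. IL6ST, the signalling chain shared by the IL6 family, rose by 0.24 on the log2 scale (adjusted p = 0.000680), and IL6R, which binds IL6 itself, had a log2FC of -0.51 (adjusted p = 0.0183, up to 0.134 without control replicate 3). The scavenging chemokine receptor ACKR3 had a log2FC of -0.45 (adjusted p = 0.038, lost in 7 alternatives). With CT against control, LIFR, the receptor chain for LIF, had a log2FC of -0.37 (adjusted p = 0.00147), OSMR, that for oncostatin M, of 0.18 (adjusted p = 0.00561), CXCR2, a receptor for CXCL8, of -0.92 (adjusted p = 0.0247, lost in 5 alternatives) and TLR3, a sensor of double-stranded RNA, of -0.37 (adjusted p = 0.000447).

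Of 28 chemokines, 11 were tested, with CCL2, CXCL8 and CXCL3 among them. After UVA 4 (36.4%) were higher and 0 lower, against 10.5% and 10.6% of all tested genes. Before adjustment 6 rose and 0 fell, against 2541 and 2510 of all 15154 tested genes. The median log2FC of the 11 was 0.88. The share, the tally before adjustment and the median include CXCL3, CCL26 and CXCL11. Of 3 control libraries, 0, 0 and 1 reached the filter's CPM for these genes, which were admitted through the irradiated groups. No excess is therefore read from these summaries. Besides CCL2 the genes called were CXCL3, CXCL16 and CCL22. CXCL3, which attracts neutrophils as CXCL8 does, held 0.276 ± 0.113 CPM in control cells, 1.04 ± 0.324 after UVA and 1.42 ± 0.442 after UVA and CT. No control library of CXCL3 reached the filter's CPM, so its call is not read, and 3 chemokines were higher without it. CXCL16, a chemokine tethered to the membrane, held 28.6 ± 0.428, 33.6 ± 1.70 and 34.8 ± 2.75 CPM in the same order (log2FC after UVA 0.23, adjusted p = 0.0293, up to 0.108 without UVA replicate 3). The call of CCL22 (log2FC 1.15, adjusted p = 0.0259) was lost in 4 alternatives, with adjusted p up to 0.125 without UVA replicate 3.

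Of 10 tested genes of the IL6 family, the colony-stimulating factors and TNF relatives, 1 was higher and 3 were lower after UVA. That is 40% in all, against 21.1% of all tested genes. LIF, a cytokine of the IL6 family, rose from 7.76 ± 0.572 to 11.6 ± 0.733 CPM (log2FC 0.58, adjusted p = 0.00237). Beside CSF1, TNFSF10, the death ligand TRAIL, fell from 178 ± 46.5 to 64.0 ± 7.22 CPM (log2FC -1.47, adjusted p = 0.0123, up to 0.0541 without UVA replicate 2), and IL15, a cytokine of lymphocytes, had a log2FC of -0.69 (adjusted p = 0.00832, up to 0.0688 without control replicate 3).

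Other genes known as NF-κB targets moved in both directions, with 8 of 31 higher (25.8%) and 6 lower (19.4%) after UVA. Of all tested genes 10.5% were higher and 10.6% lower. The median log2FC of the 31 was -0.03. IER3, an early response gene, rose 1.9-fold (adjusted p = 4.92e-05), and BCL2L1, a survival factor, had a log2FC of 0.25 (adjusted p = 0.00155) and SAA2, an acute phase protein whose near-identical copy SAA1 can share its reads, of 0.79 (adjusted p = 0.00233). EHF, an epithelial ETS factor, had a log2FC of -0.29 (adjusted p = 0.00326). With CT against control the list held 9 higher (29%) and 10 lower (32.3%) genes, against 15.7% and 14.2% of all tested genes. Among them PLAUR, the urokinase receptor, had a log2FC of 0.77 (adjusted p = 4.04e-05) and the complement component C3 of -0.42 (adjusted p = 6.83e-05). Between irradiated cells with and without CT the 2 genes called were in this list. KYNU, an enzyme of tryptophan breakdown, held 16.1 ± 1.45 CPM in control cells, 16.1 ± 1.83 after UVA and 23.5 ± 2.45 after UVA and CT, a log2FC of 0.54 between the irradiated groups (adjusted p = 0.00641, and 0.0602 and 0.0632 without UVA replicate 1 or 2). IER3 was higher with CT by 0.47 on the log2 scale (adjusted p = 0.0296), and that call was lost without UVA and CT replicate 3 (0.41, adjusted p = 0.148) and, with adjusted p up to 0.167, in 5 other alternatives.

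**Figure D5:**
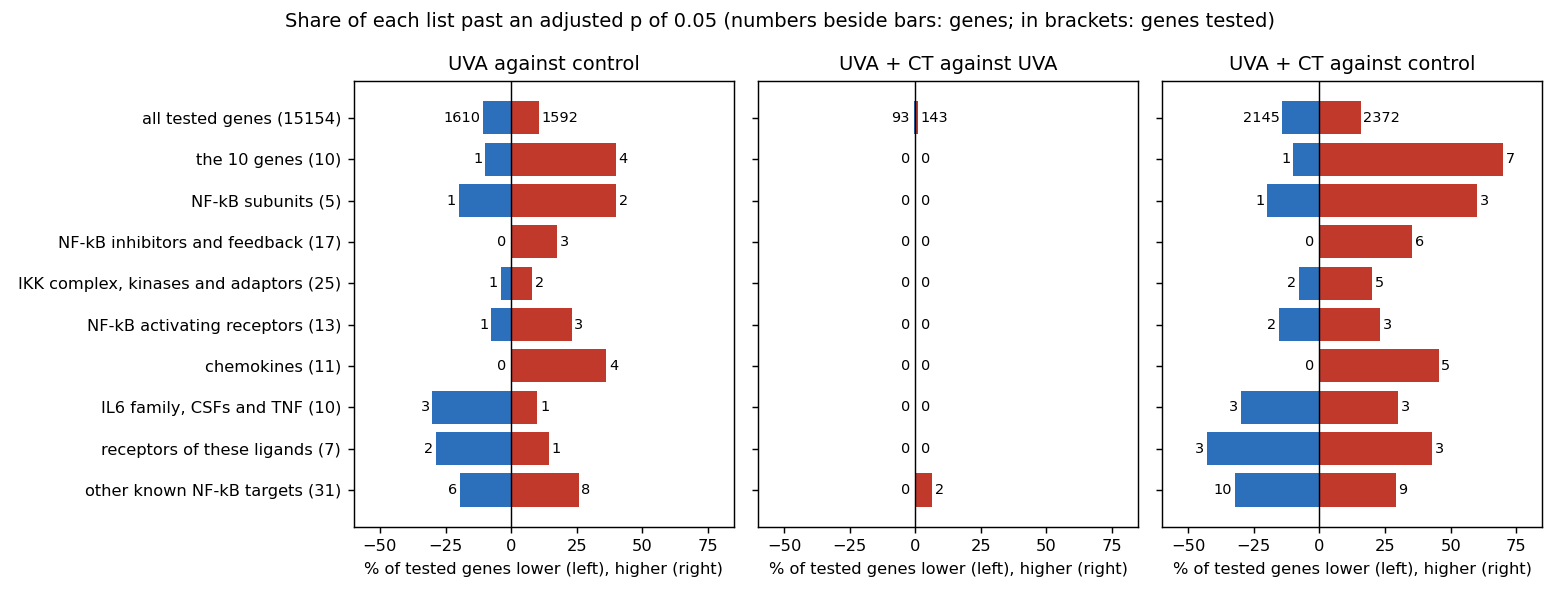
Share of the tested genes of each list that was lower (blue, left) or higher (red, right) at an adjusted p under 0.05 in edgeR, in the 3 comparisons, with the number of genes beside each bar and the number tested in brackets. Chemokines and inhibitors hold rises and no falls against control, counting IL6, CXCL3 and CD40, which the filter admitted through irradiated groups, and the middle panel holds 2 calls in all, both in the list of other NF-κB targets.

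By group mean, control was lowest and UVA and CT highest for NFKB2, RELA, RELB, TNFAIP3, CCL2, CXCL8 and IL6, but the difference between the irradiated groups passed the test for none of them. Without UVA and CT replicate 3 the fitted difference between those groups was negative for NFKB2, RELB, CCL2 and CXCL8. On the log2 scale it was 0.0071 for TNFAIP3, 0.018 for IL6 and 0.13 for RELA (adjusted p = 0.526 from edgeR for RELA). The genes whose pattern over the 9 libraries lay nearest to NFKB2, by the root mean square distance of z-scored log2 CPM among 11162 genes, were MAFF (0.110), PPP1R15A (0.124) and ZC3H8 (0.127). Those nearest to CCL2 were ECM1 (0.154), SLC39A14 (0.167) and ERRFI1 (0.170), and those nearest to CSF1 were MBD2 (0.0970), COL4A5 (0.117) and ST6GALNAC2 (0.131). For IL6 the nearest of 11163 genes, ZNF766, lay at 0.243. IL6, RELA and TNFAIP3 overlap genes on the opposite strand in GENCODE 29, and the strand of counting is not given in the sources used here, so reads of such partners cannot be told apart. Of the partners, STEAP1B overlaps IL6 and held 0 to 2 counts per library.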

How the data were processed

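RNA of HaCaT cells was sequenced in 9 libraries, 3 per group. The authors enriched mRNA by its poly(A) tail and deposited whole-number counts per gene, not normalized. The submitters' notes name bcl2fastq, fastp 0.23.2 and GRCh38 without their roles. The aligner, counting program, annotation and strand setting were not found in the labels, the methods or the table header. Columns were assigned by sample title. Genes were filtered with filterByExpr (minimum count 10), which left 15154, scaled by TMM and tested with edgeR 4.0.16 (quasi-likelihood F test, robust, all 9 libraries, R 4.3.3) with Benjamini-Hochberg adjustment over all tested genes and an adjusted p under 0.05. Standard errors are the absolute log2 fold change over the square root of F. Log2 CPM used a prior count of 2. The fit was tested on simulated data. Coordinates are from GENCODE 29 (GRCh38). Alternatives were DESeq2 1.42.0, limma-voom 3.58.1, other scalings and filters, fits of only the groups compared, a replicate block, leaving out each library, and stricter thresholds. The members and gene lists were chosen with earlier results of these data known. Beside the 10 genes, REL and TNF, the text names from each list up to 4 genes per comparison that passed with the smallest adjusted p, and for 4 genes those of nearest pattern whose log2 CPM averaged 2 or more.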

Additional observations from a re-analysis of the deposited data

How the results depend on the processing

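IL6 held 3 to 50 and CXCL8 11 to 188 counts per library. The number of the 10 genes called, IL6 included, was 4 to 6 after UVA and 6 to 8 in CT-treated against control cells over the alternative tests, scalings, filters, left-out libraries and the adjusted p under 0.01, and 0 between the irradiated groups in all of them. Over the same settings 1728 to 3405, 2760 to 4588 and 95 to 561 of all genes were called in the same order. Between 13389 and 29141 genes were tested. With a fold change over 2 required, 1 and 4 of the 10 were called against control, with IL6 among the 4. Of all 15154 tested genes 230 and 355 were called in this way. Calls of IL6 in these counts are not read, since the filter admitted it through the irradiated groups. In the main fit 5, 0 and 7 of the other 9 genes were called after UVA, between the irradiated groups and in CT-treated against control cells. The shares of all tested genes were 21.1%, 1.56% and 29.8%. The replicate numbers did not pair the samples (correlations of same-numbered deviations -0.0481 to 0.028). With the number as a replicate block 6, 0 and 8 of the 10 genes were called in the 3 comparisons, with IL6 among the 8. Of all 15154 tested genes 2802, 169 and 4145 were called with the block. IL6 did not pass the filter of 10 counts in every library and has no value there.

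At an adjusted p under 0.01, 1728 of all genes and 15 of the pathway genes were called after UVA, 100 and 1 between the irradiated groups, and 2760 and 31 in CT-treated against control cells. With a fold change over 2 required as well as an adjusted p under 0.05, these were 230 and 5, 16 and 0, and 355 and 9. Between the irradiated groups 561 of all genes and 6 pathway genes were called without a filter on low counts, and 1 pathway gene with the replicate block. Leaving out 1 library at a time gave 17 to 36 pathway genes after UVA, and 95 to 372 of all genes and 0 to 3 pathway genes between the irradiated groups. In CT-treated against control cells it gave 34 to 52 pathway genes.

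Directions turned only where no call was made. Between the irradiated groups the log2 fold change of CCL2 was -0.0019 with limma-voom and -0.016 with library size only. Over the left-out libraries it was -0.11 to 0.090 for CCL2, -0.066 to 0.023 for NFKB1, -0.066 to 0.16 for NFKB2, -0.15 to 0.22 for RELB and -0.023 to 1.01 for CXCL8, and for NFKBIA in CT-treated against control cells -0.0017 to 0.091. The cause was not tested.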
